A study of Mus musculus with 4 samples.

Results

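The small leucine-rich proteoglycans are secreted matrix proteins that were examined here as 9 genes, Dcn, Bgn, Aspn, Fmod, Lum, Prelp, Omd, Ogn and Epyc, chosen by name from the deposited gene tables. All 9 were found among the 55141 genes with a length-scaled level (TPM, the reads of a gene divided by its length and brought to the same total in each library), and all 9 had at least 20 reads in every library. By sequencing, mRNA was measured in cultured articular chondrocytes, the cells of cartilage, isolated from cartilage of the femoral head of 3-week-old mice. There were 4 libraries, 1 per condition, so that no difference between conditions has a replicate check and none was tested.

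Cells labelled wild type came from C57BL/6 mice. In the paper these cells are called both wild type and control, and its methods define controls as floxed mice, so it is uncertain whether they carried floxed clusters. Cart-miR-23clus KO cells came from C57BL/6 mice with Col2a1-cre and floxed miR-23a/b clusters on both alleles, in which deletion occurs where the Col2a1 promoter has been active. The miR-26a KO cells were miR-26a -/- on C57BL/6. In the last library, labelled C57BL6/J, miR-26a -/- cells had been transfected with a double-stranded miR-26a mimic. A negative control siRNA was also used in the study, but from the labels it is not clear if the miR-26a KO cells had received it, nor how many animals were pooled for a library.

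Each of these proteins has a curved core built from leucine-rich repeats, and most carry chondroitin, dermatan or keratan sulfate chains. They bind to fibrillar collagens in cartilage, tendon, cornea and bone, where they regulate how fibrils grow and how they are spaced, and several also bind growth factors such as TGF-β. Class I holds decorin (Dcn), biglycan (Bgn) and asporin (Aspn), class II holds fibromodulin (Fmod), lumican (Lum), PRELP (Prelp) and osteomodulin (Omd), and class III holds osteoglycin (Ogn) and epiphycan (Epyc).

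The miRNAs removed or returned in these cells act through a seed, bases 2 to 8 of the mature strand, which pairs with 3′ UTRs. Their mature sequences from the RefSeq table are shown, 5′ to 3′ with the seed in capitals, because the seeds define the letters that were searched for in the 9 genes (miR-23b-3p of the deleted clusters is not shown).
mmu-miR-23a-3p: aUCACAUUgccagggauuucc
mmu-miR-27a-3p: uUCACAGUggcuaaguuccgc
mmu-miR-27b-3p: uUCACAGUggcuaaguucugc
mmu-miR-24-3p: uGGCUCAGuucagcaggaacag
mmu-miR-26a-5p: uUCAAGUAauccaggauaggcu
On GRCm38.p6, miR-23a-3p lies at chr8:84208563-84208583, miR-27a-3p at chr8:84208727-84208747 and miR-27b-3p at chr13:63300760-63300780. The miR-24-3p sequence is encoded at both chr8:84208875-84208896 and chr13:63301251-63301272, and miR-26a-5p at both chr9:119031811-119031832 and chr10:126995543-126995564, all on the plus strand. The miR-27 pair has the same seed, and the other seeds differ from each other.

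The reverse complement of each seed was searched on the transcript's strand in the annotated 3′ UTR of the longest coding transcript of each gene (GENCODE M21, GRCm38). These 7-base matches are AATGTGA for miR-23, ACTGTGA for miR-27, CTGAGCC for miR-24 and TACTTGA for miR-26a. Of 6193 genes of these libraries with an annotated 3′ UTR of at least 50 bases, 15.6% held the first match, 16.7% the second, 17.3% the third and 11.3% the fourth. In the 9 proteoglycan genes, Ogn had 1 match to miR-27 and Aspn had 1 match to miR-26a, and the other 7 genes held none of these letters. Both sites are printed with their flanks, with the match in capitals, so that they can be set beside the levels of Ogn and Aspn.
Ogn, miR-27 match: caaaacaaaatACTGTGAaactaaacagc
Aspn, miR-26a match: tacatttggaaTACTTGAactgtcctagt
The match in Ogn was at base 184 of a 3′ UTR of 1518 bases, at chr13:49623167-49623173 on the plus strand. That in Aspn was at base 49 of 926, at chr13:49566680-49566686 on the plus strand. Both matches are followed by an A. A match is a description of these letters and does not show that a miRNA bound there.

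Reads on genes numbered from 1336496 to 1505805 per library, so that a count of 0 allows up to 0.000225% of reads in the least deep library. The cartilage label was checked against 13 chondrocyte markers, all of which had at least 20 reads in every library, with summed levels of 15710 TPM in wild type, 11240 TPM in Cart-miR-23clus KO, 11200 TPM in miR-26a KO and 11220 with the mimic. Of 10 osteoblast markers, which included Ibsp and Bglap, the sum was 6691, 2607, 4182 and 4553 TPM in the same order, and Ifitm5, with 34 reads in wild type, had 0 in Cart-miR-23clus KO, while Dmp1 and Phex had at most 4 reads in each of the 3 libraries with deposited reads. Of 12 markers of fibroblasts, tendon and synovial lining, Pi16 was at 0 in every library and the sum was 615 TPM in wild type, 510 TPM in Cart-miR-23clus KO, 774 TPM in miR-26a KO and 831 with the mimic. Most of this sum was Col3a1, at 478 TPM in wild type and 281 TPM in Cart-miR-23clus KO, whereas 4 of the 5 markers with 20 reads in both of these libraries were higher in the latter. Sums of 9 macrophage markers were 933, 1142, 363 and 615 TPM, those of 6 adipocyte markers 172, 500, 135 and 178 TPM, and those of 5 smooth muscle markers 158, 342, 159 and 206 TPM, again in that order, with the smooth muscle gene Myh11 at 0 in every library. The 10 cell cycle genes summed to 109 TPM in wild type and to between 246 and 251 TPM in the other 3 libraries. The defining endothelial markers were at or near 0, with a sum of at most 0.406 TPM. The part of these other cell types and of cycling cells in the levels below was not tested. Since the RNA came from whole cultures, fewer cells of a type and less RNA per cell cannot be told apart.

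Together the 9 genes held 0.877% of the reads on genes in wild type, with an exact Clopper-Pearson 95% interval of 0.862% to 0.892%. The share was 0.889% (0.873% to 0.905%) in the Cart-miR-23clus KO library, 1.06% (1.04% to 1.08%) in that of miR-26a KO and 0.994% (0.978% to 1.01%) with the mimic. Here and below, intervals cover counting error only, and since the reads carry no molecular identifiers they are not independent molecules. The family's share was thus highest in miR-26a KO, at 1.21 times that of wild type (1.18 to 1.24), whereas in Cart-miR-23clus KO it was 1.01 times that of wild type (0.989 to 1.04). Within the family, Fmod, Dcn and Bgn supplied from 76.6% to 78.8% of the reads in the 4 libraries. The similar total in wild type and Cart-miR-23clus KO hid a different make-up. In wild type Dcn supplied 23.2% of the family's reads, and 17.6% in Cart-miR-23clus KO, while Bgn supplied 22.1% and 26.8%, and Lum 6.34% and 3.81%.

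**Figure D1:**
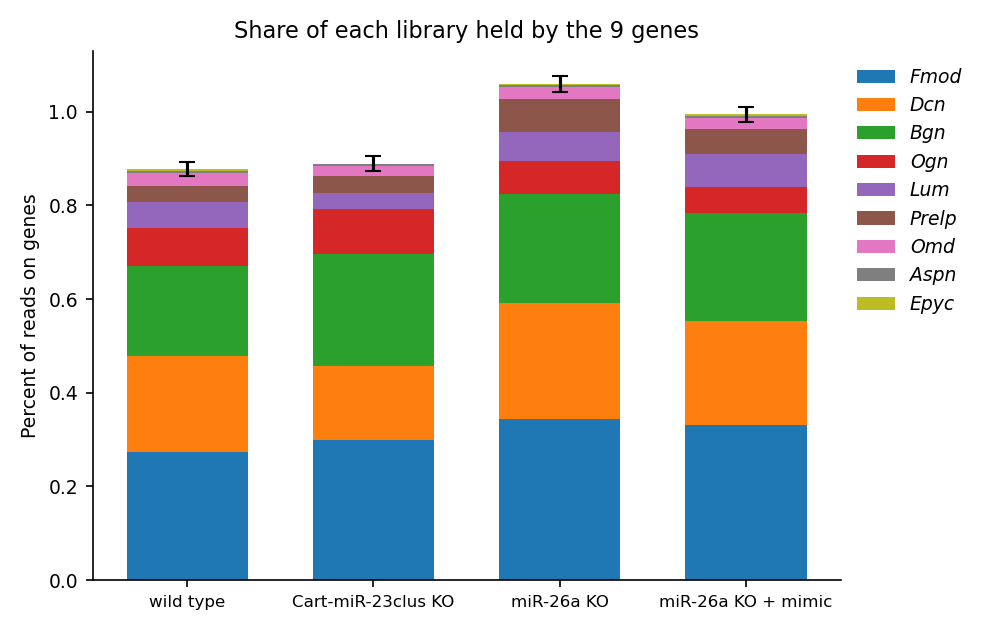
Percent of the reads on genes (vertical axis) held by the 9 genes in each of the 4 libraries, stacked by gene, with error bars for the exact 95% counting interval of the total. The total was 0.877% in wild type, close to the 0.889% of Cart-miR-23clus KO, and the Dcn and Lum segments were smaller in the latter.

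By deposited TPM in wild type, the order was Bgn, Dcn, Fmod, Ogn, Lum, Omd, Prelp, Aspn and Epyc. Bgn, Dcn and Fmod ranked 34th, 86th and 108th of the 15173 genes with a TPM above 0, and Aspn and Epyc ranked 3237th and 3929th. On this length-scaled order, neighbours differed beyond counting error except for Aspn and Epyc, whose levels had a ratio of 1.35 (0.934 to 1.97). Aspn and Epyc were also not distinguishable in miR-26a KO, at a ratio of 1.58 (0.973 to 2.62), nor with the mimic, where Epyc stood above Aspn at 1.34 (0.884 to 2.03), an order that depends on the length used for Epyc. In Cart-miR-23clus KO the pair of neighbours that could not be ordered by TPM was Prelp and Omd, at 1.06 (0.913 to 1.23). By reads, with no division by length, the order in wild type was Fmod, Dcn, Bgn, Ogn, Lum, Prelp, Omd, Aspn and Epyc. Fmod then had 1.34 times the reads of Dcn (1.28 to 1.41), Prelp had 1.24 times those of Omd (1.09 to 1.42) and Aspn 1.81 times those of Epyc (1.25 to 2.64), while Dcn and Bgn could not be ordered, at 1.05 (0.999 to 1.11). In Cart-miR-23clus KO Prelp had 477 reads and Omd 280, which were ordered, and the pair that was not was Prelp and Lum, at 1.05 (0.924 to 1.20).

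**Figure D2:**
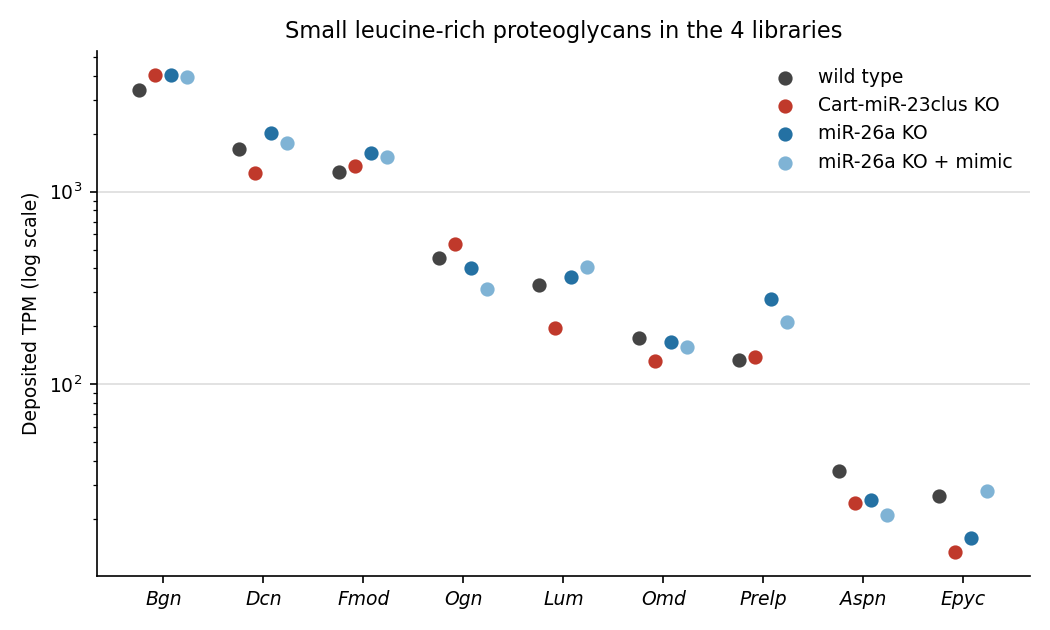
Deposited TPM (vertical log axis) of each gene, ordered by its level in wild type, with 1 point per library. Lum was lowest in Cart-miR-23clus KO at 195 TPM, and Prelp was highest in miR-26a KO at 277 TPM.

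The first place of Bgn rests on the length used for it. The gene length behind each TPM value was recovered from the ratio of reads to TPM, and 99.2% of 17867 such lengths were equal to the length of a GENCODE M21 transcript of the gene. Among 13394 genes with several transcripts, 92.7% had the length of the first transcript listed and 51.9% that of the longest. For Bgn the length was 828 bases, that of Bgn-203, a processed transcript without a coding sequence, whereas the coding transcript Bgn-201 has 2419 bases. At the coding length the Bgn level was 1155 TPM in wild type, 1388 TPM in Cart-miR-23clus KO, 1389 TPM in miR-26a KO and 1349 with the mimic, 2.92 times below the deposited values. Dcn then came first in wild type, in miR-26a KO and with the mimic, with Bgn behind both Dcn and Fmod. In Cart-miR-23clus KO Bgn and Fmod could not be ordered at that length, at a ratio of 1.02 (0.978 to 1.07). Epyc was divided by 1723 bases (Epyc-201) rather than the 2539 of Epyc-202, a factor of 1.47, and the other 7 genes moved by a factor of at most 1.01. At the coding length Aspn exceeded Epyc beyond counting error in wild type, at 1.97 (1.36 to 2.88), and in miR-26a KO, at 2.31 (1.42 to 3.83), and with the mimic the pair turned over, with Aspn at 1.09 times Epyc (0.718 to 1.65). Reads of this 3′ end protocol do not grow in number with the length of a transcript, so the order of different genes is given both on the deposited scale and by reads. The ratio of a gene between libraries does not depend on its length.

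**Figure D3:**
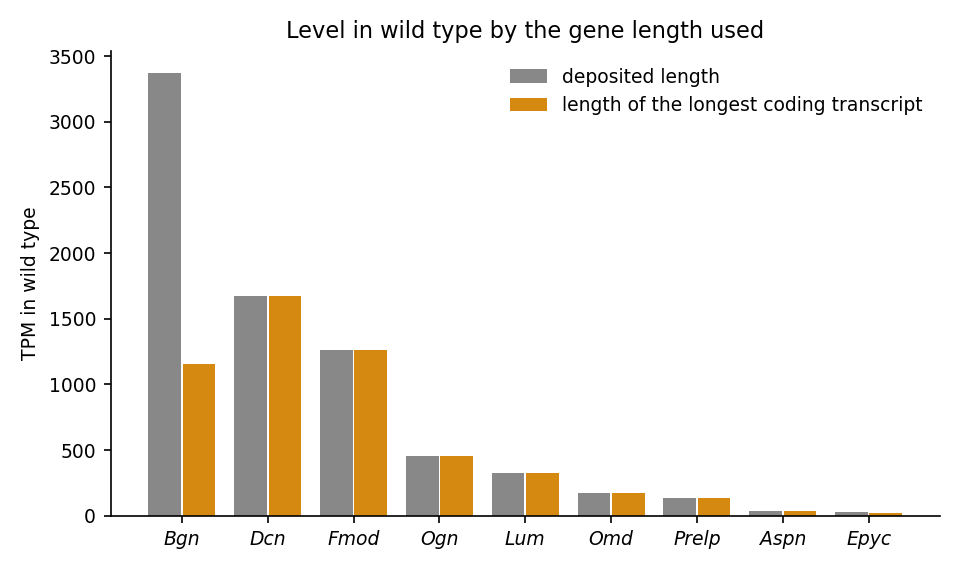
TPM in the wild-type library (vertical axis) of each gene with the length the deposited values used and with the length of its longest coding transcript. Bgn was at 3373 TPM with the former and at 1155 TPM with the latter, and the other genes kept their order.

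Ratios between libraries are ratios of deposited TPM, each with an exact 95% interval computed from reads scaled by library totals, which is not always centred on the TPM ratio. Ratios above 2 or below 0.5 were counted, with the same count over all genes as the background. Against wild type, 0 of the 9 genes were past 2-fold in Cart-miR-23clus KO, where 10.3% of 13620 genes with TPM above 0 in both libraries were above 2 and 8.02% below 0.5. With at least 20 reads in both libraries, as all 9 had, these shares were 2.06% and 1.47% of 6935 genes. In miR-26a KO 1 of 9, Prelp, was above 2 and 0 were below 0.5, against 8.72% and 7.51% of 13586 genes, or 1.59% and 0.811% of the 7028 genes with 20 reads. For the mimic library over miR-26a KO 0 of 9 were past 2-fold, against 5.2% and 7.31% of 13585 genes, or 0.197% and 0.183% of 7110. Between both knockouts 0 of 9 were past 2-fold, against 10.1% and 6.57% of 13595 genes, or 1.21% and 1.15% of 6858. Prelp came closest there, at 0.502 (0.459 to 0.574), an interval that includes 0.5. At 1.5-fold, 0 genes were higher and 2 (Lum and Epyc) lower in Cart-miR-23clus KO than wild type, where 8.23% and 7.93% of the 6935 genes were. For miR-26a KO over wild type it was 1 higher (Prelp) and 1 lower (Epyc), against 7.26% and 4.81% of 7028 genes, and for the mimic library over miR-26a KO 1 higher (Epyc) and 0 lower, against 2.66% and 3.19% of 7110. Cart-miR-23clus KO had 0 genes above and 3 (Dcn, Lum and Prelp) below miR-26a KO, against 4.97% and 7.01% of 6858. These members are few, and no count was tested. The 3 comparisons with miR-26a KO share that library, and both ratios to wild type share the wild-type library, so they are given side by side and are not independent.

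**Figure D4:**
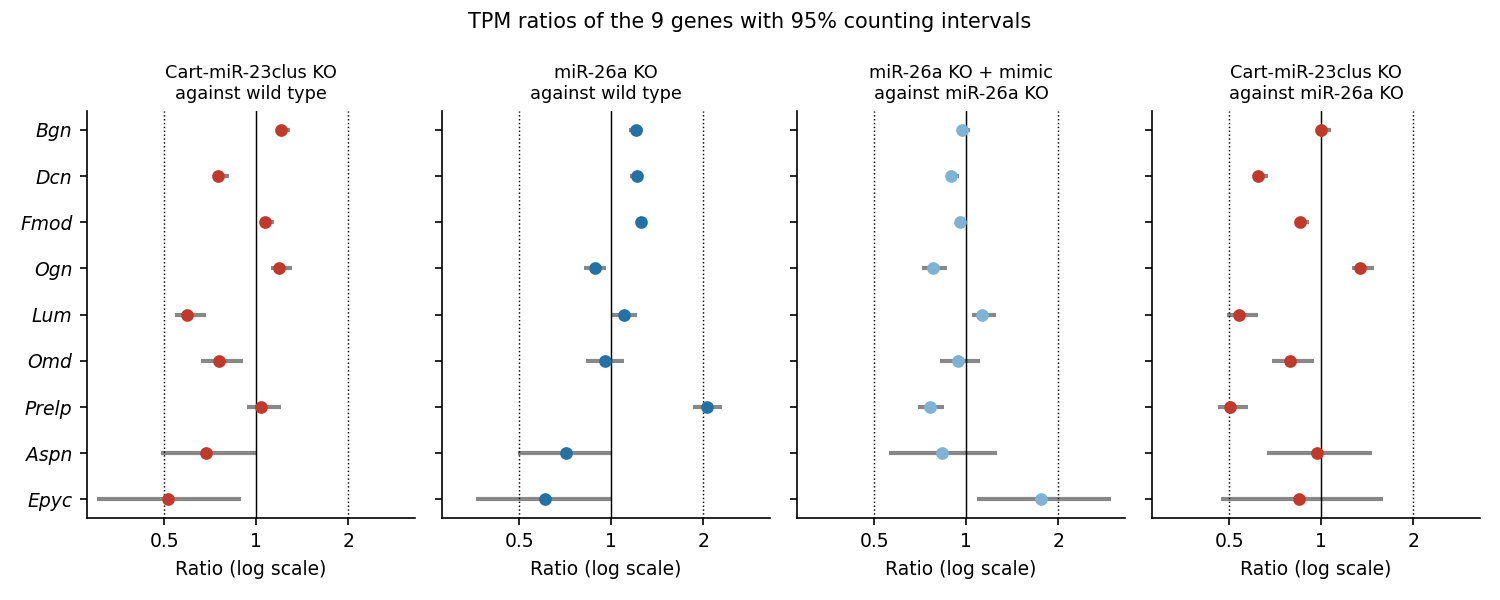
TPM ratios (points, log axis) of the 9 genes in each of the 4 comparisons, with bars for the exact 95% counting interval and dotted lines at 0.5 and 2. Prelp in miR-26a KO against wild type, at 2.06, was the point past a dotted line.

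Over the 9 genes, the log2 ratio between Cart-miR-23clus KO and wild type had a median of -0.40, with 4 genes higher and 5 lower, beside a median of -0.011 over the 6935 genes. For miR-26a KO to wild type the median was 0.14, with 5 higher and 4 lower, beside 0.039 over 7028 genes. The mimic library to miR-26a KO gave -0.086, with 2 higher and 7 lower, beside -0.010 over 7110 genes. Cart-miR-23clus KO to miR-26a KO gave -0.23, with 1 higher, Ogn, and 8 lower, beside -0.050 over 6858 genes. Bgn, at a ratio of 0.999, is among these 8 but was above 1 with CPM, TMM or DESeq2's size factors, which gave 2 higher and 7 lower. With 9 genes and 1 library per condition, these medians describe the libraries and were not tested.

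Within class I, the related genes of decorin and biglycan lay on opposite sides of wild type in Cart-miR-23clus KO but were both higher than wild type in miR-26a KO. Decorin binds collagen fibrils, limits their lateral growth and sequesters TGF-β. Dcn was at 1670 TPM in wild type, 1254 TPM in Cart-miR-23clus KO, 2023 TPM in miR-26a KO and 1799 with the mimic. The Cart-miR-23clus KO library was lowest, at 0.751 of wild type (0.726 to 0.812) and 0.620 of miR-26a KO (0.600 to 0.669), and miR-26a KO was highest, at 1.21 times wild type (1.15 to 1.27). Among the 6935 genes, 14.9% had a lower ratio than Dcn between Cart-miR-23clus KO and wild type. Nearly all of the 6935 had fewer reads than Dcn and so wider counting error. The mimic library was at 0.889 of miR-26a KO (0.857 to 0.944).

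Biglycan, which carries chondroitin or dermatan sulfate chains, associates with type VI collagen and can signal through Toll-like receptors. Bgn was at 3373 TPM in wild type, 4056 TPM in Cart-miR-23clus KO, 4059 TPM in miR-26a KO and 3942 with the mimic. Wild type was the low library, and both knockouts stood at 1.20 times its level, with intervals of 1.17 to 1.29 in Cart-miR-23clus KO and 1.15 to 1.27 in miR-26a KO. Bgn had the narrowest span of the 9 genes, with the highest library 1.20 times the lowest, and its mimic ratio to miR-26a KO was 0.971 (0.936 to 1.03). Since gene length and library size both cancel in it, the number of Dcn reads per Bgn read can be followed across libraries. It was 1.05 (0.999 to 1.11) in wild type, 0.656 (0.621 to 0.694) in the Cart-miR-23clus KO library, 1.06 (1.01 to 1.11) in that of miR-26a KO and 0.969 (0.923 to 1.02) with the mimic. Only the interval of Cart-miR-23clus KO lay apart from the other 3.

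Asporin has an aspartate-rich stretch in place of the usual attachment site for a chain and binds both collagen and TGF-β. Aspn was at 35.2 TPM (85 reads) in wild type, 24.2 TPM (53) in Cart-miR-23clus KO, 25.0 TPM (55) in miR-26a KO and 20.8 (49) with the mimic. Wild type was highest, with ratios of 0.687 (0.489 to 1.002) in Cart-miR-23clus KO and 0.711 (0.497 to 1.01) in miR-26a KO. Both intervals end so close to 1 that whether they include it depends on how the libraries are scaled. Centred on the TPM ratio the interval for Cart-miR-23clus KO ended at 0.979, and with TMM that for miR-26a KO ended at 0.984. This is the gene whose 3′ UTR holds the miR-26a match printed above. Its ratio of the mimic library over miR-26a KO was 0.832 (0.561 to 1.26), an interval that includes both a lower and a higher level.

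In class II, fibromodulin, a keratan sulfate proteoglycan of cartilage and tendon that aids the assembly and crosslinking of collagen fibrils, had the most reads of the family. Fmod was at 1265 TPM in wild type, 1355 TPM in Cart-miR-23clus KO, 1588 TPM in miR-26a KO and 1511 with the mimic. Its span was narrow, 1.26 times from lowest to highest, with ratios to wild type of 1.07 (1.05 to 1.15) in Cart-miR-23clus KO and 1.26 (1.20 to 1.31) in miR-26a KO. Between the mimic and miR-26a KO the ratio was 0.952 (0.925 to 1.003), whose interval ends close to 1 and left it out when centred on the TPM ratio or with DESeq2's size factors.

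Lumican, the keratan sulfate proteoglycan best known for corneal transparency, competes with fibromodulin for a binding site on type I collagen. Lum was at 327 TPM in wild type, 195 TPM in Cart-miR-23clus KO, 361 TPM in miR-26a KO and 408 with the mimic. The Cart-miR-23clus KO library was low, at 0.596 of wild type (0.543 to 0.685), and 4.21% of the 6935 genes had a lower ratio. Against miR-26a KO it was at 0.540 (0.491 to 0.620). The other libraries were closer together, with miR-26a KO at 1.10 times wild type (1.002 to 1.22), an interval that took in 1 with TMM or DESeq2's size factors. The mimic library was above miR-26a KO by 1.13 times (1.04 to 1.25). Lum reads per Fmod read were 0.203 (0.188 to 0.219) in wild type, 0.113 (0.102 to 0.125) in the Cart-miR-23clus KO library, 0.179 (0.166 to 0.192) in that of miR-26a KO and 0.212 (0.198 to 0.227) with the mimic. This number was lowest in Cart-miR-23clus KO, with an interval apart from the other 3.

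PRELP, whose proline- and arginine-rich end binds heparan sulfate, links basement membranes and cell surfaces to collagen. Prelp was at 134 TPM in wild type, 139 TPM in Cart-miR-23clus KO, 277 TPM in miR-26a KO and 210 with the mimic. Both miR-26a -/- libraries were high. The ratio to wild type was 2.06 (1.85 to 2.30) in miR-26a KO, and 98.6% of the 7028 genes had a lower ratio, whereas in Cart-miR-23clus KO it was 1.04 (0.934 to 1.20). The mimic library stood between wild type and miR-26a KO, at 0.759 of miR-26a KO (0.697 to 0.845). No letters matching the miR-26a seed were found in the annotated 3′ UTR of Prelp, which has 2302 bases. In miR-26a KO the sums of macrophage, osteoblast and chondrocyte markers were below those of wild type, and the sums of cell cycle genes and of markers of fibroblasts, tendon and synovial lining were above them, as given above. The adipocyte sum was also lower, but 2 of the 3 adipocyte markers with 20 reads, Fabp4 and Pparg, were each at 1.27 and the other, Lpl, at 0.364. The part of these cells in the Prelp ratio was not tested. Prelp reads per read of its neighbour on chromosome 1, Fmod, were 0.123 (0.112 to 0.135) in wild type, 0.119 (0.108 to 0.131) in the Cart-miR-23clus KO library, 0.202 (0.188 to 0.217) in that of miR-26a KO and 0.161 (0.149 to 0.174) with the mimic.

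Osteomodulin, also called osteoadherin, is a keratan sulfate proteoglycan of bone matrix. Omd was at 174 TPM in wild type, 131 TPM in Cart-miR-23clus KO, 166 TPM in miR-26a KO and 156 with the mimic. Cart-miR-23clus KO was the low library, at 0.756 of wild type (0.662 to 0.903), and miR-26a KO at 0.956 (0.827 to 1.11) was not distinguishable from wild type, nor was the mimic library from miR-26a KO, at 0.942 (0.821 to 1.11). The summed osteoblast markers were also lowest in Cart-miR-23clus KO, at 2607 TPM against 6691 in wild type, although Spp1, which supplied 1613 TPM of the former, was at 2.09 times wild type (1.99 to 2.30). Of the 5 markers with 20 reads in both libraries 4 were lower and 1, Spp1, higher, and their part in the Omd value was not tested.

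In class III, osteoglycin, first purified from bone and named mimecan in the cornea, had the opposite order to Lum. Ogn was at 453 TPM in wild type, 537 TPM in Cart-miR-23clus KO, 400 TPM in miR-26a KO and 312 with the mimic. Cart-miR-23clus KO was highest, at 1.19 times wild type (1.12 to 1.31) and 1.34 times miR-26a KO (1.26 to 1.49), and the mimic library was lowest, at 0.780 of miR-26a KO (0.718 to 0.867). In miR-26a KO it was at 0.884 of wild type (0.812 to 0.963). Ogn holds the match to miR-27, a miRNA of the deleted clusters, printed above, and 74.5% of the 6935 genes had a lower ratio than Ogn between Cart-miR-23clus KO and wild type. Ogn reads per Lum read were 1.45 (1.33 to 1.59) in wild type, 2.89 (2.59 to 3.22) in the Cart-miR-23clus KO library, 1.16 (1.06 to 1.27) in that of miR-26a KO and 0.802 (0.731 to 0.881) with the mimic, and none of these intervals overlapped.

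Epiphycan is a dermatan sulfate proteoglycan of epiphyseal cartilage and was the least abundant of the 9 by reads in wild type. Epyc was at 26.1 TPM (47 reads) in wild type, 13.5 TPM (22) in Cart-miR-23clus KO, 15.9 TPM (26) in miR-26a KO and 27.9 (49) with the mimic. Wild type and the mimic library had the higher values and both knockouts the lower. The ratio to wild type was 0.515 (0.303 to 0.893) in Cart-miR-23clus KO and 0.608 (0.362 to 1.002) in miR-26a KO, and the mimic library was at 1.76 times miR-26a KO (1.09 to 2.99). The interval for miR-26a KO just includes 1, and left it out with TMM or DESeq2's size factors. At 99% confidence those for Cart-miR-23clus KO (0.254 to 1.04) and the mimic (0.941 to 3.51) also included 1, so that with 22 to 49 reads these differences were at the edge of what this depth can show.

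Over all 4 libraries, the highest TPM was more than 2 times the lowest for 3 of the 9 genes, Lum (2.09), Epyc (2.08) and Prelp (2.06), against 7.29% of 6546 genes with at least 20 reads in every library. The spans of Ogn (1.72), Aspn (1.69) and Dcn (1.61) were intermediate, and those of Omd (1.32), Fmod (1.26) and Bgn (1.20) small. With so few genes, no weight was put on the difference between this count and the background.

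The family lies in 3 clusters on GRCm38 and 1 gene apart. Dcn (chr10:97479609-97518143), Lum (chr10:97565128-97572703) and Epyc (chr10:97644068-97682454) follow each other on the plus strand of chromosome 10 with Kera between Lum and Epyc. Aspn (chr13:49544443-49567565), Omd (chr13:49582462-49592822) and Ogn (chr13:49608046-49624501) lie on the plus strand of chromosome 13. Prelp (chr1:133910304-133921414, minus strand) and Fmod (chr1:134037254-134048277, plus strand) are neighbours on chromosome 1, and Bgn (chrX:73483602-73495933, plus strand) stands alone. No other annotated coding gene lies wholly in the gap between neighbours within a cluster, and genes that overlap or span these gaps were not searched. In Cart-miR-23clus KO all 3 genes of chromosome 10 were below wild type, at 0.751, 0.596 and 0.515, whereas the pair of chromosome 1 was at 1.04 and 1.07. The chromosome 13 cluster was split, with Aspn at 0.687 and Omd at 0.756 but Ogn at 1.19. In miR-26a KO it was chromosome 10 that was split, with Dcn at 1.21 and Lum at 1.10 but Epyc at 0.608. Aspn (0.711), Omd (0.956) and Ogn (0.884) were all below wild type in miR-26a KO, and Prelp (2.06) and Fmod (1.26) above it. The number of Ogn reads per Omd read, 2.97 (2.66 to 3.33) in wild type, was 4.67 (4.10 to 5.33) in the Cart-miR-23clus KO library, 2.75 (2.43 to 3.11) in that of miR-26a KO and 2.28 (2.01 to 2.59) with the mimic.

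**Figure D5:**
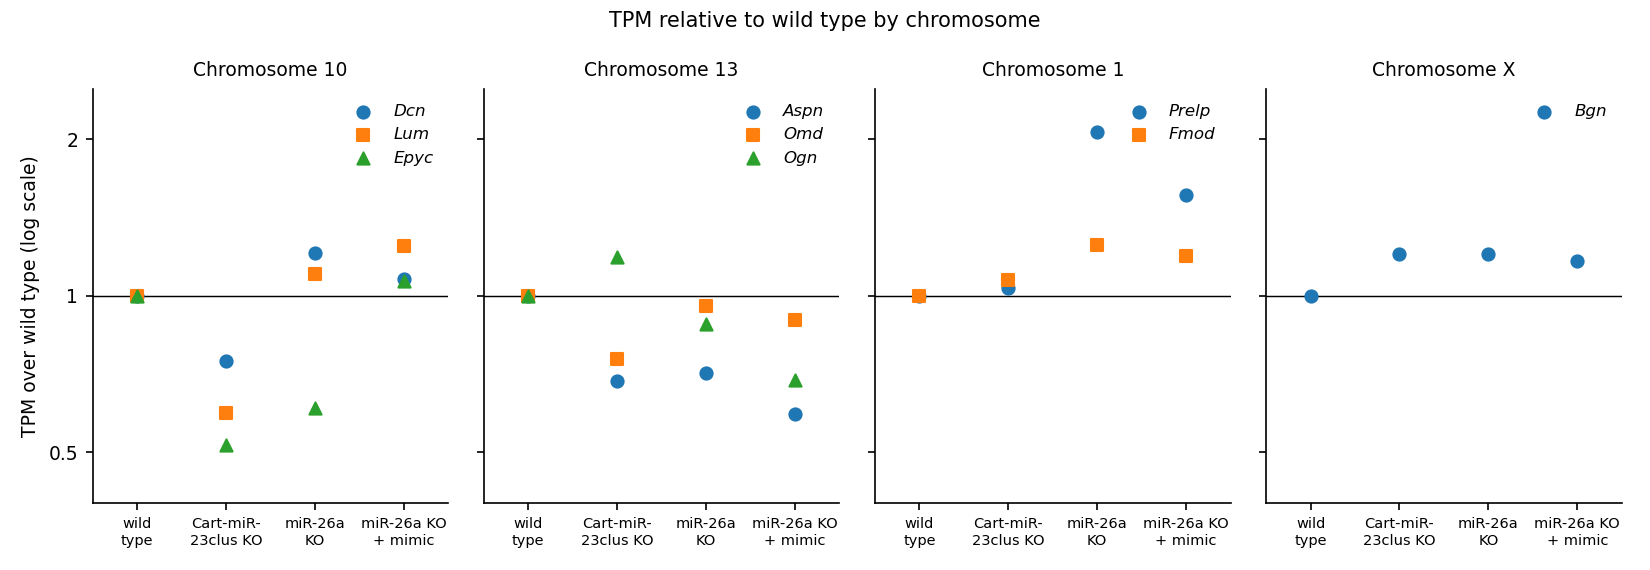
TPM relative to wild type (vertical log axis) in each library, with the genes grouped by chromosome. In Cart-miR-23clus KO the 3 genes of chromosome 10 lay between 0.515 and 0.751, and Ogn at 1.19 lay above its neighbours Aspn and Omd.

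Other genes of the wider leucine-rich repeat family had fewer reads than most of the 9. Among them Kera, Optc, Nyx and Tsku had at most 4 reads in any library. Ecm2, next to Aspn, had 28 reads in wild type, 30 reads in Cart-miR-23clus KO, 45 reads in miR-26a KO and 46 with the mimic, and Podn had 53, 52, 73 and 61. Chad (chondroadherin, a cartilage protein that binds collagen and integrins) was low in wild type, with 16 reads or 9.12 TPM, and reached 25.1 TPM in Cart-miR-23clus KO, 56.3 TPM in miR-26a KO and 67.8 with the mimic. Its ratio to wild type was 2.75 (1.54 to 5.39) in Cart-miR-23clus KO and 6.18 (3.61 to 11.3) in miR-26a KO, a larger difference than for any of the 9 genes. Podnl1 (podocan-like 1, chr8:84125989-84132527) had 20 reads in wild type, 2 reads in Cart-miR-23clus KO, 20 reads in miR-26a KO and 15 with the mimic, and in Cart-miR-23clus KO its TPM was 0.110 of that in wild type (0.0128 to 0.464). Podnl1 ends at base 84132527 of chromosome 8, and miR-23a-3p of the deleted miR-23a cluster starts at base 84208563. The part of that locus in the Podnl1 value was not tested. Of the 9 genes in this wider group, 3 had 20 reads in both Cart-miR-23clus KO and wild type, and all 3 (Ecm2, Podn and Chadl) had intervals that included 1. In miR-26a KO and wild type 3 had such reads (Ecm2, Podn and Podnl1). All 3 were higher in miR-26a KO, with 0 past 2-fold, beside 1.59% above 2 and 0.811% below 0.5 of the 7028 genes.

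The collagens to which these proteins bind were set beside them as sums. The summed level of 14 collagen genes was 38540 TPM in wild type, 18000 TPM in Cart-miR-23clus KO, 29790 TPM in miR-26a KO and 28350 with the mimic. That of the 9 proteoglycans was 7458, 7705, 8915 and 8387 TPM in the same order. Both sums rest on the deposited lengths. In wild type Col1a2 was at 21110 TPM from 18746 reads and Col1a1 at 6328 TPM from 39203 reads. With the mimic 10 of 13 collagen genes with 20 reads were higher than in miR-26a KO and 3 lower, though the sum was lower. Bgn, at the short length given above, supplied 3373 TPM in wild type and 4056 TPM in Cart-miR-23clus KO. Which of these libraries has the larger proteoglycan sum depends on that length. Of 12 collagen genes with 20 reads in Cart-miR-23clus KO and wild type, 3 were higher and 9 lower, and 4 (Col1a1, Col1a2, Col11a1 and Col12a1) were below 0.5, beside 1.47% of the 6935 genes. The ratio was 0.207 (0.207 to 0.217) for Col1a1 and 0.417 (0.415 to 0.438) for Col1a2, the chains of type I collagen, and 0.466 (0.453 to 0.502) for Col11a1. The 3 higher genes, Col6a1 at 1.61 (1.43 to 1.91), Col6a2 at 1.48 (1.34 to 1.71) and Col6a3 at 1.47 (1.39 to 1.63), are chains of type VI collagen. In miR-26a KO 3 of 13 collagen genes were above wild type and 10 below, with 0 above 2 and 1, Col1a1 at 0.425 (0.418 to 0.434), below 0.5, beside 1.59% and 0.811% of the 7028 genes. Col1a1 is also abundant in osteoblasts, whose summed markers were lower in both knockouts, and the part of such cells in these ratios was not tested.

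Enzymes that modify the core proteins, most of which build their sugar chains and 2 of which sulfate tyrosines, were listed as 29 genes, of which 28 were matched by symbol. Of 18 with 20 reads in Cart-miR-23clus KO and wild type, 9 were higher and 9 lower, 0 above 2 and 1 below 0.5, beside 2.06% and 1.47% of the 6935 genes. That gene was Tpst2, which sulfates tyrosines, at 0.367 (0.247 to 0.559), so 0 of the chain-building enzymes with such reads were past 2-fold. Chst14, the dermatan sulfotransferase, was at 0.505 (0.318 to 0.822), and Chpf, a chondroitin polymerizing factor, at 1.80 (1.50 to 2.26). In miR-26a KO 9 of 18 were above wild type and 9 below, with 0 past 2-fold, beside 1.59% above 2 and 0.811% below 0.5 of the 7028 genes. The highest of these ratios was that of Dsel, a relative of dermatan sulfate epimerase, at 1.95 (1.20 to 3.26). The summed level of the matched genes differed little, at 656 TPM in wild type, 619 TPM in Cart-miR-23clus KO, 635 TPM in miR-26a KO and 643 with the mimic.

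For each of the 9 genes, the genes with the most similar pattern were taken as those with the smallest root mean square difference in log2(TPM + 0.5), centred per gene, over the 4 libraries and 6546 genes. For Dcn they were Ssh1 (0.018), Taf15 (0.033) and Cltb (0.036), and for Bgn Cyb5r1 (0.008) and Clasp2 (0.016). Fmod was nearest to Sptlc1 (0.010), Uba1 (0.011) and Anxa5 (0.013), and Lum to Fam3a (0.007), Inhba (0.026), which encodes the activin A subunit, and Wipi2 (0.030). For Prelp the nearest were Senp5 (0.059), the chain synthesis gene Dsel (0.072) and Pam (0.080), farther away than for most other members. Ogn was nearest to Myh10 (0.022), Pqlc1 (0.036) and Tns3 (0.041), and Omd to Lzts2 (0.007), Rgp1 (0.016) and Fam114a1 (0.020). Aspn was nearest to a gene the files leave without a symbol (0.025), then Wiz (0.027) and Foxo3 (0.031), and Epyc to Phka1 (0.043), St3gal1 (0.068) and Rnpepl1 (0.068). No member was among the 3 genes nearest to another. The closest pair within the family was Bgn and Fmod at 0.088, where Fmod ranked 575th among the genes nearest to Bgn. Such patterns rest on 4 values a gene and say nothing of shared function or control.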

How the data were processed

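RNA from 4 cultures was sequenced by the authors as QuantSeq 3′ mRNA libraries with single-end reads of 75 bases, and the submitters' processing notes name mm10 and GRCm38.p6. The deposited estimated counts are whole reads per gene without normalization, given for 3 libraries over 55450 genes. The deposited TPM values were made by the authors for all 4 libraries from reads divided by 1 length per gene. Reads of the mimic library were recovered from TPM steps: all 14429 values of genes with reads in another library were whole within 0.01 reads and summed to 1449246. The other 588 genes above 0, with 0.0817% of the TPM, had no known length, so their reads were not recovered or tested and are missing from this total. Genes were taken by symbol and positions from GENCODE M21.

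The members and lists were chosen with earlier results of these data known. All 9 members were named. From each list, up to 3 genes with the largest log2 ratio were named among those with at least 20 reads in both libraries; not all are given. Chad, Podnl1, Col6a1, Col6a2, Col6a3, Col3a1, Spp1, Fabp4, Pparg, Lpl, Mmp3, Adamts4, Tll1 and markers named for being at or near 0 were chosen after their values were seen. Of the genes nearest in pattern, 1 is not reported here. No replicates exist, so no p-value was computed. Log2 medians used a pseudocount of 0.5 TPM. Alternatives were CPM, TMM scaling (edgeR 4.0.16), size factors (DESeq2 1.42.0), a minimum of 20 reads or 1 TPM, 1.5-fold, pseudocounts of 0.1 and 1 TPM, and the share without Dcn or Bgn. Interval steps were tested on simulated data. Python 3.11.15, pandas 2.3.3, scipy 1.17.1 and R 4.3.3 were used.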

Additional observations from a re-analysis of the deposited data

How the results depend on the processing

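All 108 member ratios recomputed with CPM, TMM or DESeq2's size factors stayed inside their counting intervals, and the largest shift was 3.07%. The intervals were built from library totals, so the CPM ratios lay inside by construction. Only those with TMM or DESeq2's size factors could fall outside. In alternatives chosen after seeing the data, the order of the genes was also taken by reads and at coding lengths (given in the text), and the intervals were centred on the ratio by TPM, TMM or DESeq2's size factors in place of library totals. Of the 36 ratios, 26, 26 and 27 then had intervals that left out 1, where library totals gave 24, and 5 depended on the scaling: Aspn in both knockouts, Epyc and Lum in miR-26a KO, all against wild type, and Fmod with the mimic. The same count was not made over all genes, so it compares scalings only and gives no result about the members. The direction turned for 1, Bgn between the knockouts, at 0.999 by TPM and 1.02 to 1.03 otherwise. The counts past 2-fold were the same under these scalings and with minimums of 20 reads or 1 TPM. At 1.5-fold, the number of genes was 2 (Lum and Epyc) for Cart-miR-23clus KO and 2 (Prelp and Epyc) for miR-26a KO, both against wild type, 1 (Epyc) for the mimic library against miR-26a KO, and 3 (Dcn, Lum and Prelp) between the knockouts, where 2-fold gave 0, 1, 0 and 0. The family's share of the library, in the order used in the text (wild type first, then the Cart-miR-23clus KO, the miR-26a KO and the mimic), was 0.746%, 0.771%, 0.892% and 0.839% of the TPM sum. As a share of reads it was 0.673%, 0.733%, 0.811% and 0.772% without Dcn, and 0.683%, 0.651%, 0.825% and 0.765% without Bgn. Between wild type and Cart-miR-23clus KO the direction of the share therefore turned when Bgn was left out. No paired analysis was possible because there was only 1 library in each group. The reads of Aspn and Epyc, from 22 to 85 per library, limit their ratios most.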

Other observations

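Proteases known to cleave these proteins were listed as 9 genes, of which 6 had at least 20 reads in the libraries compared. All 6 were below wild type in Cart-miR-23clus KO, 2 of them below 0.5, beside 1.47% of all genes with such reads. Htra1, a serine protease that cleaves several proteoglycans, was at 0.359 of wild type (0.284 to 0.470), and Bmp1, which removes the propeptide of biglycan, at 0.475 (0.281 to 0.816). The gelatinase gene Mmp2 was at 0.572 (0.503 to 0.679). Among the genes with fewer reads, Mmp3 (17 in wild type) was higher, at 1.88 (1.02 to 3.73). Adamts4 (5 in wild type) was at 1.76 (0.520 to 7.00), and Tll1 had 0 reads in both libraries. In miR-26a KO 3 of the 6 were higher than in wild type and 3 lower, with Mmp13 at 1.72 (1.61 to 1.84), Adamts5 at 1.66 (1.19 to 2.32) and Mmp2 at 0.667 (0.579 to 0.769), and 0 were past 2-fold, beside 1.59% above 2 and 0.811% below 0.5 of the 7028 genes with such reads. In the mimic library 4 of 6 were higher than in miR-26a KO and 2 lower, with 0 past 2-fold, beside 0.197% and 0.183% of the 7110 genes.

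Growth factors and receptors that these proteins bind were listed as 15 genes. Of 10 with 20 reads in Cart-miR-23clus KO and wild type, 4 were higher and 6 lower, with 2 below 0.5, beside 1.47% of all genes with such reads: Ccn4, also called WISP1, at 0.270 (0.209 to 0.361), and Tgfbr2, the type II TGF-β receptor, at 0.372 (0.298 to 0.484). Both were also below wild type in miR-26a KO, at 0.528 (0.427 to 0.651) and 0.663 (0.544 to 0.807), ratios that share the wild-type library with the former. Of the 11 listed genes with 20 reads in miR-26a KO and wild type, 6 were higher and 5 lower. Of these 0 were past 2-fold, beside 1.59% above 2 and 0.811% below 0.5 of the 7028 genes.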
